A study of Mus musculus with 24 samples.

Results

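The Hox clusters were described as 39 protein-coding genes of the GENCODE mouse annotation, chosen by symbol (Hoxa, Hoxb, Hoxc or Hoxd followed by a digit) out of 21951. Hoxa has 11 of them on chromosome 6, Hoxb 10 on chromosome 11, Hoxc 9 on chromosome 15 and Hoxd 9 on chromosome 2. Open chromatin had been mapped with ATAC-seq (adapters are inserted by Tn5 transposase where DNA is accessible) in bone marrow-derived macrophages of male mice at postnatal day 28, grown for 7 days. There were 4 C57BL6/J animals (1, 4, 6 and 7) and 4 animals of the inbred strain BTBR T+ Itpr3tf/J (BTBR, animals 2, 3, 5 and 8), with 3 libraries from each. Cells received plain media, lipopolysaccharide (LPS, a bacterial outer membrane component) at 100 ng/ml for 24 hours (LPSx1), or the same dose for 4 hours, a wash, 20 hours without LPS and then 24 hours of LPS (LPSx2). All cells were primary cultures with no transgene or knockout named in the labels, and whether an animal's 3 libraries came from separate cultures is not stated.

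Hox genes encode homeodomain transcription factors that give cells their position along the body axis, and within a cluster they lie in the order in which they are switched on. In blood, several Hoxa and Hoxb genes are active in stem and progenitor cells and are turned down as cells mature. Clusters that are not in use are held silent by the Polycomb repressive complexes, while the Kmt2a (MLL) complex keeps active Hox genes open. Meis and Pbx proteins bind DNA together with Hox proteins.

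The unit of measurement was the peak, a short interval of fixed width called as open in 1 library, and a peak was given to a gene when that gene had the nearest start site and lay within 100 kb. Of 24 peak lists, 22 were used (7 media, 8 LPSx1, 7 LPSx2). The media and LPSx2 lists of C57BL6/J animal 6 held fewer than 5000 peaks each, had no Hox peak, and were left out. List length, the sign of depth at hand, ran from 11349 to 127242 peaks after overlapping peaks were merged, and the 3 longest lists were those of BTBR animal 2 (63125, 112429 and 127242 peaks). In 7 lists most peaks overlapped another one before merging. The cell label was checked against marker genes in the lists cut to equal length within each sequencing lane (length-limited lists). All 10 macrophage genes, among them Csf1r and Spi1, averaged at least 0.5 peaks per library. No peak was found in any library at 5 of 10 stromal genes (Col1a1, Col1a2, Col3a1, Pdgfra and Thy1), 3 of 6 T and NK cell genes and 4 of 5 B cell genes. Pdgfrb of the stromal list averaged 1.14 peaks per library, more than the 0.909 of the macrophage gene Cd68, and Cd34 of the erythroid and progenitor list averaged 4.36. Of 5 neutrophil genes, S100a8 and Camp averaged 0.818 each, and Elane and Ly6g had none. Peaks summed over the stromal list numbered 1 to 2 per media library, 0 to 7 with LPSx1 and 0 to 4 with LPSx2. For the erythroid and progenitor list the sums were 2 to 6 for media, 2 to 8 for LPSx1 and 3 to 8 for LPSx2, mostly at Cd34, with none at Gata1 or Gfi1b. For the neutrophil list they were 0 to 2, 1 to 2 and 1 to 4. The part of these lists in the Hox peaks was not tested.

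All 4 Hox clusters carried peaks in some of these libraries, but 20 of the 39 genes had none, and few regions recurred. Of the 36 regions found, 4 were present in at least 11 of 22 libraries (11.1%, against 17.5% of all regions of the genome), among them those at the Hoxa4 and Hoxb4 starts. Over the 22 whole lists, 130 peaks in all were nearest a Hox start, 70 of them in the 3 lists of BTBR animal 2. Those 3 lists held 63125, 112429 and 127242 of the 806671 peaks in all lists, so a large share is due to their length. Of the regions, 22 were found in BTBR animal 2 and in no other animal. The same count over all regions of the genome is not given here, so the 22 cannot be set against it. A pair of sequences shows what such regions look like: the recurrent start region of Hoxa4, and a Hoxd region found after LPS alone. Each is the plus strand of mm10, read from the GRCm38.p6 reference, 5′ to 3′. Capitals mark matches to short motifs searched on both strands, here TGATNNAT, the composite site of Hox with Pbx, and GGGCGG, the SP/KLF site.
Hoxa4 start (chr6:52191887-52192087): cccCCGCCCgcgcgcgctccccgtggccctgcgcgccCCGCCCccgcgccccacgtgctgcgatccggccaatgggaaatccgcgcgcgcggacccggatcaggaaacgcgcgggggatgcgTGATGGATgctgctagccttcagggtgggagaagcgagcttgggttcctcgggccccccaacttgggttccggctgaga
Hoxd3 downstream (chr2:74749303-74749503): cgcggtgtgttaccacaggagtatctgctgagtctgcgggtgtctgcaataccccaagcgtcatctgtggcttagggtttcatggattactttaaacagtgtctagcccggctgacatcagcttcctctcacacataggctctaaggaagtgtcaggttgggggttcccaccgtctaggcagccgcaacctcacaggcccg

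The Hoxa4 start region held 2 SP/KLF matches and 1 Hox-Pbx match. The Hoxd3 downstream region held no match to the motifs searched. Over all Hox regions, TGATNNAT was found in 4 of 36 windows of peak width (11.1%), against 6.97% of 147816 windows over all regions of the genome. GGGCGG was found in 9 of 36 (against 11.4%), the AP-1 motif TGANTCA in 6 (16.7%, against 18.3%) and the C/EBP motif TTGCNNAA in 4 (11.1%, against 13.3%). No Hox window held a full match to the PU.1 motif GAGGAAGT (8.08% of all regions) or to the CTCF pattern searched (2.99%). Sites that differ from a pattern by a letter were not counted, so this does not show that PU.1 or CTCF sites are absent. The Hox regions had a median GC content of 53.5%, against 48.3% over all regions, and a median observed-to-expected CpG ratio of 0.57, against 0.209.

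Hoxa held the most peaks, 70 of 130, of which 31 came from BTBR animal 2. Between its first and last start sites, 102.564 kb apart, the whole lists averaged 2.39 peaks per 100 kb per library, against 1.35 over the genome. The same density was 0.689 in Hoxb, 0.241 in Hoxc and 0.864 in Hoxd. In the length-limited lists the density was 0.62 in Hoxa, close to the 0.581 of the genome, and 0.159 in Hoxb, 0 in Hoxc and 0.144 in Hoxd. Of 11 Hoxa genes 6 had a peak in at least 1 library, as did 5 of 10 Hoxb, 4 of 9 Hoxc and 4 of 9 Hoxd genes. Without BTBR animal 2 these counts were 4, 1, 2 and 3. In all, 20 of the 39 genes had no peak in any list, among them Hoxa5, Hoxa9, Hoxb3, Hoxc6 and Hoxd4. Across 21864 protein-coding genes with an annotated start, 78.8% had a peak in at least 1 library, against 48.7% of the Hox genes. Hox starts lie a few kb apart, so assignment to the nearest start splits a cluster finely. An inner Hox gene can thus take peaks from a short stretch only, and the part of this in the shares was not tested.

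**Figure D1:**
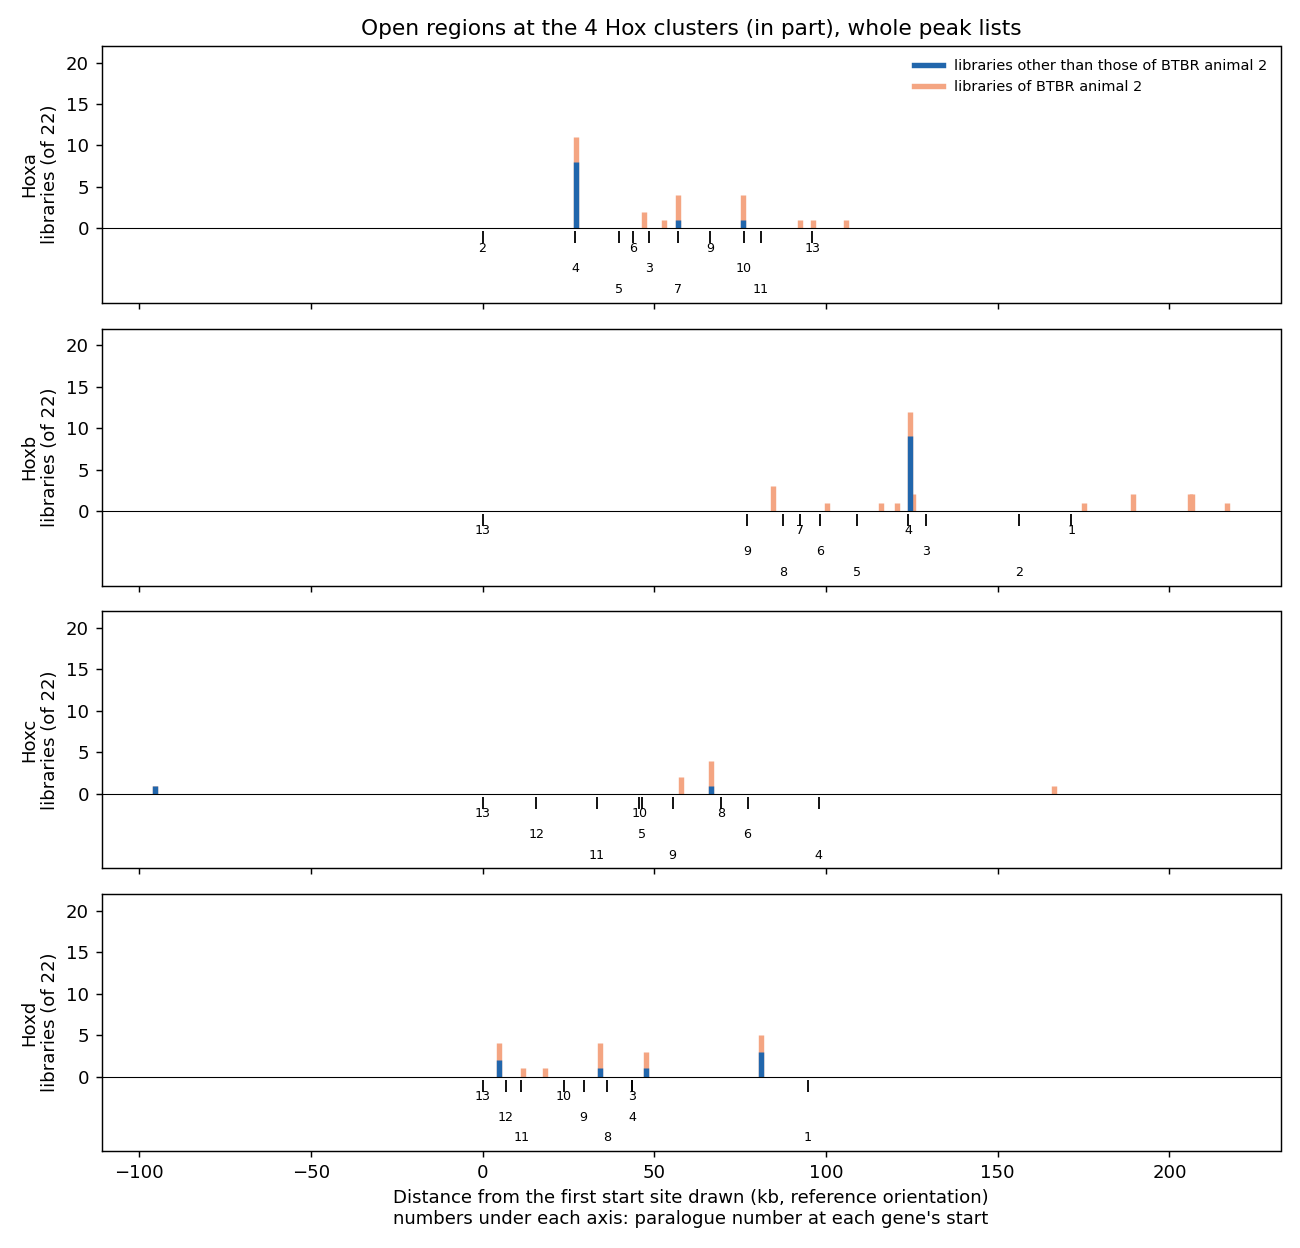
Open regions along the 4 Hox clusters in the whole peak lists, 29 of the 36 regions being drawn. The horizontal axis is the distance from the first start site drawn in kb, bar height is the number of libraries (of 22) with the region, orange marks libraries of BTBR animal 2 and blue all others, and ticks with numbers mark the outermost start of each gene. The tallest bars stand at Hoxb4 (12 libraries) and Hoxa4 (11), and 19 bars are orange alone.

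Start sites showed the gap most plainly. A peak within 1 kb of a start was found at 6 of 39 Hox genes in any library (15.4%), against 58.4% of all protein-coding genes. All 6 had one in the LPSx2 list of BTBR animal 2, the longest list, and 4 had one without that animal. Hox starts are rich in CpG, a feature that usually goes with open promoters: the median CpG ratio within 250 bp of a start was 0.821 for the Hox genes and 0.666 for all genes. Among the 11999 genes with a ratio of at least 0.6, 85.2% had a peak at a start in some library. Of the 31 Hox genes that meet the same limit, 5 did (16.1%). Per library, 5.36% ± 4.1 of Hox starts (SD, n = 22; 0 to 15.4%) carried a peak, against 41.3% ± 7.67 of all starts (28.1% to 56.8%) and 65.6% ± 10.5 of CpG-rich starts (46.7% to 83.5%). The ranges for Hox genes and all genes did not overlap between libraries.

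**Figure D2:**
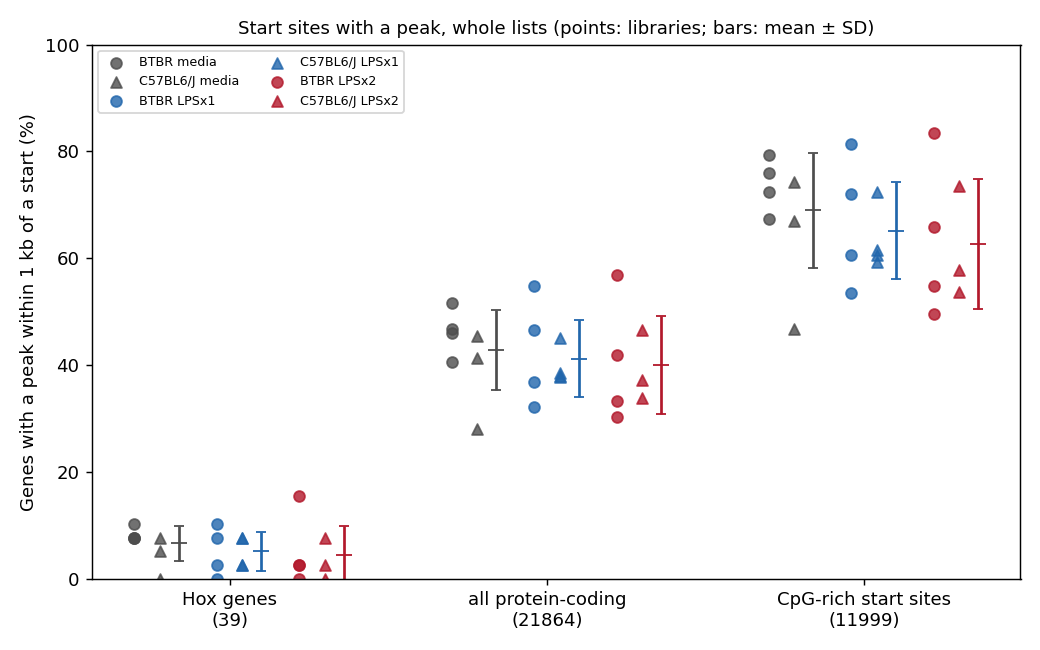
Percent of genes with a peak within 1 kb of a start site, by gene set and treatment. Each point is 1 library (circles BTBR, triangles C57BL6/J), bars give the mean ± SD over the libraries of a treatment, and all Hox points (0 to 15.4%) lie under all points of the other sets (28.1% and above).

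The Hox peaks mostly ranked in the weaker part of their lists, where the middle of any list is 50%. Peaks were ranked by score within a list, with 0% the strongest and 100% the weakest, since the scale of the score is not stated. In the 20 libraries with a Hox peak, the median Hox peak stood at 67.8% ± 12 (SD over libraries; 46.0% to 86.0%). The median peak at any start stood at 34.8% ± 2.88 (n = 22; 30.3% to 41.7%), but the sets differ in kind, since 7 of 36 Hox regions (19.4%, against 16.1% of all regions) lay within 1 kb of a start. No set matched on distance to a start was compared. The 3 shortest lists (11349, 13957 and 15623 peaks) had 0 to 1 Hox peaks, and the 3 longest, all of BTBR animal 2, had 14, 23 and 33. In between, the number followed list length loosely, with 3 at 17519 peaks, 1 at 24734, 2 at 33184 and 8 at 50091. Per 10000 peaks, BTBR libraries had 1.53 ± 0.73 Hox peaks (SD, n = 12) and C57BL6/J libraries 0.96 ± 0.528 (n = 10), and the ranges overlapped (0 to 2.59 and 0 to 1.62). List length moved with strain too, at 44052 ± 38644 peaks in BTBR and 27805 ± 8661 in C57BL6/J, and its part in the strain values was not tested.

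**Figure D3:**
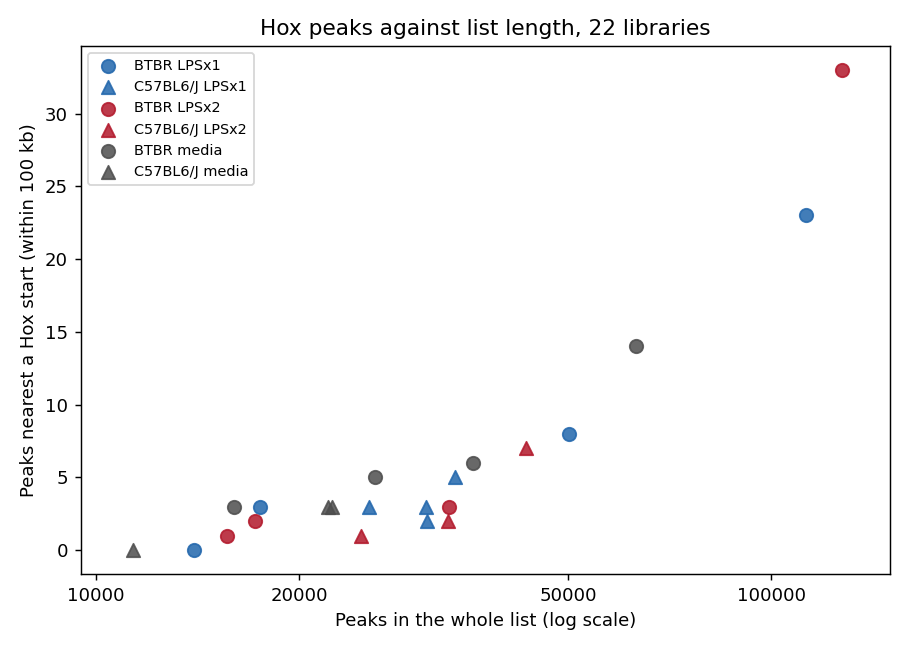
Peaks nearest a Hox start against list length (log axis) for 22 libraries, coloured by treatment and shaped by strain. The 3 libraries of BTBR animal 2 stand apart with 14, 23 and 33 Hox peaks, and all others have 0 to 8.

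Hoxb4, which promotes self-renewal of blood stem cells when overexpressed, had 21 peaks in 14 libraries. Its main region (chr11:96318524-96318756) lay 373 bp past the start, in an annotated untranslated exon part of the gene, and was found in 12 libraries of 7 animals. It was seen in 6 of 7 media, 4 of 8 LPSx1 and 2 of 7 LPSx2 libraries, so it was open most often without LPS. Hoxa4, the paralogue of Hoxb4 in the Hoxa cluster, had 11 peaks in 11 libraries of 6 animals, all in 1 region (chr6:52191819-52192155) 234 bp upstream of its start and inside an intron of a longer Hoxa3 transcript. It was seen in 5 of 7 media, 4 of 8 LPSx1 and 2 of 7 LPSx2 libraries.

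In the length-limited lists, which keep the higher-scoring peaks, the number of Hox genes with an open start summed to 11 over 7 media libraries, 5 over 8 LPSx1 libraries and 2 over 7 LPSx2 libraries. Hoxa4 and Hoxb4 each had an open start in 3 of these media lists, 1 of the LPSx1 lists and none of the LPSx2 lists. The share of all starts with a peak in those lists also went down, from 35.3% ± 7.12 (SD, n = 7) in media to 29.8% ± 5.43 (n = 8) in LPSx1 and 28.1% ± 5.66 (n = 7) in LPSx2. Whether the Hox starts moved apart from that shift was not tested.

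The Hoxa genes on the 5′ side of Hoxa4 were open in few animals. Hoxa10, a regulator of myeloid progenitors, had a peak in an annotated exon 311 bp past its start (chr6:52240436-52240650) in 4 libraries: all 3 of BTBR animal 2 and BTBR animal 3 LPSx1. Hoxa7 had its main region (chr6:52221704-52221924, in an annotated exon) in the same 4 libraries. Hoxa9, the partner of Meis1 in leukaemia, had none. In Hoxb, Hoxb1 had 8 peaks in 2 libraries and Hoxb8 had 3 peaks, all in BTBR animal 2. Hoxc had 8 peaks in 5 libraries, the fewest of the clusters. Its most frequent region (chr15:102987482-102987704), in an intron of a Hoxc5 transcript and 3014 bp upstream of Hoxc8, was seen in all 3 libraries of BTBR animal 2 and in C57BL6/J animal 7 LPSx2. Hoxc9 had 2 peaks, both in BTBR animal 2. In the length-limited lists Hoxc had none. Among the other members with a peak were Hoxa3 (2 peaks), Hoxa13 (3), Hoxb5 (1), Hoxb6 (1), Hoxc4 (1) and Hoxd11 (2). All of these peaks were in lists of BTBR animal 2, and the Hoxc4 peak lay 53122 bp past a start. Hoxc13 had 1 peak, in BTBR animal 3 LPSx1, 95306 bp upstream of its start.

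Hoxd peaks came mostly from libraries of LPS-treated cells. Its whole-list counts were 1 peak in 7 media libraries, 7 in 8 LPSx1 libraries and 10 in 7 LPSx2 libraries. BTBR animal 2 supplied 1, 4 and 6 of these, which leaves 0, 3 and 4 without it, and in the length-limited lists the counts were 0, 1 and 2. LPSx1 exceeded media in 4 of 7 animals with both lists and fell below it in 0; the same counts held for LPSx2. Lists were longer after LPS in most animals too, in 6 of 7 for LPSx1 and 5 of 7 for LPSx2. Hoxd3 had 2 regions. The more frequent one (chr2:74749260-74749546) lay 9784 bp past a Hoxd3 start, outside protein-coding genes and 1103 bp downstream of the start of the noncoding RNA gene Haglr. It was found in 4 of 8 LPSx1 libraries (BTBR animals 2, 3 and 5 and C57BL6/J animal 7), in the LPSx2 library of BTBR animal 2, and in no media library. Its rank in BTBR animal 5 LPSx1 was 36.4%, and in C57BL6/J animal 7 LPSx1 it was 93.2%. The other (chr2:74715814-74716028), in an intron 3994 bp past a Hoxd3 start, was found in 3 libraries: LPSx1 and LPSx2 of BTBR animal 2 and LPSx2 of C57BL6/J animal 7. The region 1846 bp upstream of Hoxd12 (chr2:74673054-74673280) was likewise absent from media. It was found in the LPSx2 libraries of BTBR animals 2, 5 and 8 and in LPSx1 of BTBR animal 2. Hoxd8 had 1 region, 2223 bp upstream (chr2:74702289-74702495), in the same 4 libraries as the Hoxc8 region.

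**Figure D4:**
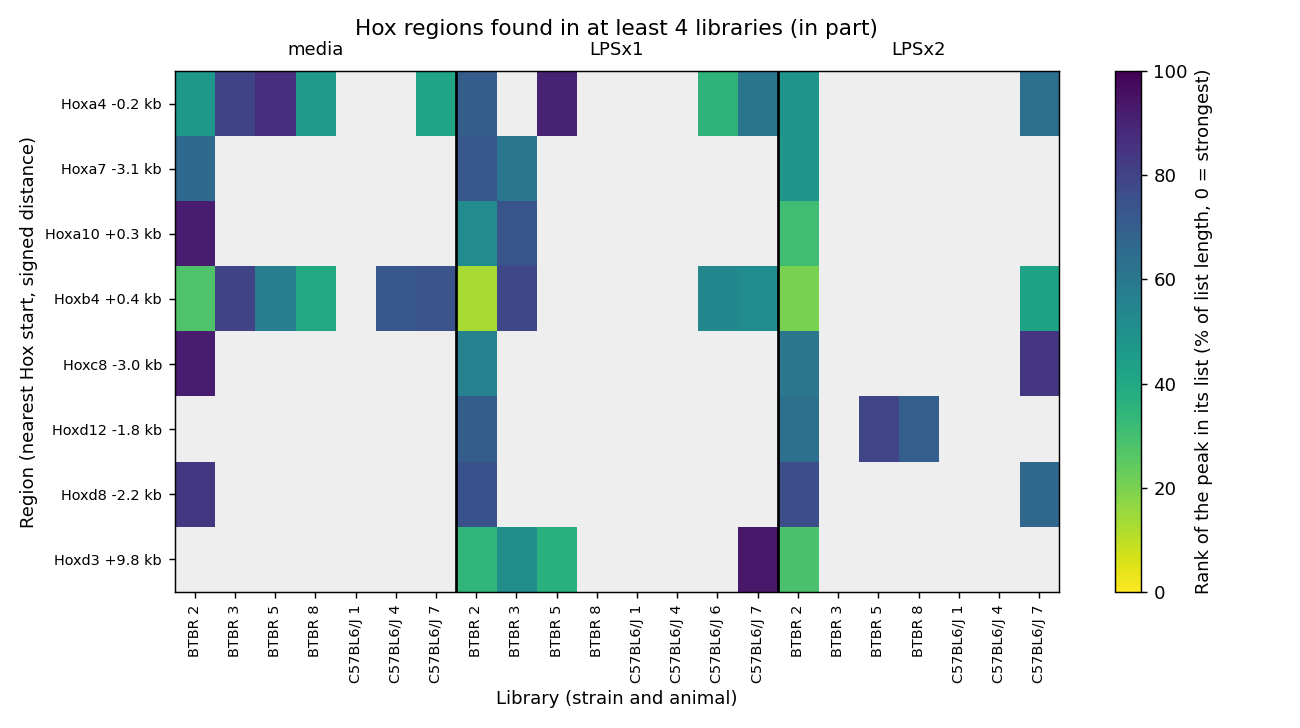
Hox regions found in at least 4 libraries, 8 of them drawn (rows, named by the nearest Hox start and the signed distance) in each of 22 libraries (columns, by treatment, strain and animal). Colour gives the rank of the peak in its list in percent of list length, with yellow strongest, and grey means no peak. The Hoxb4 +0.4 kb row thins from 6 media to 2 LPSx2 libraries, and the Hoxd3 +9.8 kb row is empty in media.

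No Hox gene passed the test for any comparison, and nearly all had too few peaks to be tested. In the length-limited lists 5 of 39 Hox genes had any peak, among them Hoxb4 in 6 libraries, Hoxa4 in 4, Hoxd12 in 2 and Hoxd3 in 1. One gene reached the mean of 0.5 peaks per library set for testing, so Hoxa4, Hoxb4 and all Hoxc and Hoxd genes stand here as descriptions with no test.

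As background, 5.4% of the 9122 genes tested changed between LPSx1 and media and 6.11% between LPSx2 and media at an adjusted p under 0.05. For LPSx2 against LPSx1 it was 0.0% (403 genes at an unadjusted p under 0.05), for the strains 1.15%, and for the strain difference in response 0.0329% (LPSx1) and 0.011% (LPSx2). With 1 Hox gene tested, a count of 0 cannot be read against shares of this size. Fixed 50-kb windows gave the same count. One window over a Hox cluster could be tested, and it did not pass. Of 10510 windows, 12.8%, 15.2%, 0.0% (457 at an unadjusted p under 0.05) and 2.34% passed for LPSx1 against media, LPSx2 against media, LPSx2 against LPSx1 and BTBR against C57BL6/J. With the animal as a replicate block, 840 windows passed for LPSx1 against media in place of 1350.

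Single regions were also compared within animals, where a gain or loss needed at least 5 of 7 animals to change one way and none the other. Of 44999 regions in the length-limited lists, 3.02% were gained or lost between LPSx1 and media, 3.48% between LPSx2 and media and 0.0556% between LPSx2 and LPSx1, and 0.478% were strain-specific. None of the 7 Hox regions was in any of these sets. Most of the 7 were found in only 1 to 4 libraries, too few to meet either rule. Their absence from these sets was therefore largely fixed in advance. In the whole lists, with a limit of 4 animals chosen after the data were seen, 2 of the 36 Hox regions met the rule. The Hoxd3 region 9784 bp past a start was gained in LPSx1 in 4 animals (BTBR 2, 3 and 5 and C57BL6/J 7), each with a longer list than in media, and lost in 0. The Hoxb4 start region was lost in LPSx2 in 4 animals (BTBR 3, 5 and 8 and C57BL6/J 4), of which animals 5 and 4 had longer lists than in media, and gained in 0. At that limit 3.35% of 147816 regions changed with LPSx1, 3.61% with LPSx2 and 0.16% between LPSx2 and LPSx1, so 1 of 36 in either comparison is near the background. No Hox region was strain-specific in the whole lists either.

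Among genes that act with or on Hox genes, 1 passed the test in any comparison, the Polycomb gene Eed. Of 26 cofactors and upstream regulators, 18 were tested and none passed in any of the 6 comparisons, with a median difference of -0.21 peaks for LPSx1 and -0.31 for LPSx2 against media, where the median over all genes was 0. The largest LPSx1 difference in this list was at Ctcf, the insulator protein (-1.51 ± 0.50 SE; limma, adjusted p = 0.0913). Of 19 Polycomb genes, 12 were tested, with a median difference of -0.10 for LPSx1 and -0.17 for LPSx2. None passed with LPS, the largest LPSx1 differences being at Phc2 (-1.59 ± 0.60 SE; limma, adjusted p = 0.138) and Kdm6b, the H3K27 demethylase (-0.92 ± 0.72; limma, adjusted p = 0.509). Eed, a core subunit of Polycomb complex PRC2, had fewer peaks in BTBR: 4.75 ± 2.14 (SD, n = 12 libraries; 3 to 8) against 7.6 ± 2.95 (n = 10; 4 to 12), a difference of -2.58 ± 0.49 (SE; limma, adjusted p = 0.0204). The ranges overlapped. Within lanes 1 and 2 the Eed difference was -3.33 and within lanes 3 and 4 it was -1.44, neither past the threshold. It also missed the threshold without animal 1, 2, 3, 4 or 5 (limma, adjusted p from 0.0549 to 0.136) and was 2.00 in the whole lists (limma, adjusted p = 0.812).

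Several of the genes listed as neighbours of the clusters had peaks in every library. These neighbours lay from 8.75 kb (Evx2) to 1175.6 kb (Ttc30b) from their cluster, so many are not close to it. Atf7 lay 295.7 kb away, Snx11 411.8 kb and Atf2 775.7 kb, and the nearest with a peak in all length-limited lists was Lnpk (89.4 kb). Of the 40 nearest neighbours, 5 on either side of each cluster, 27 were tested, and 12 carried a peak in all 22 length-limited lists, among them Atp5g1 and Snx11 beside Hoxb, Atf7, Cbx5 and Copz1 beside Hoxc, and Lnpk and Atf2 beside Hoxd. Others had no peak in those lists, among them Ttll6, Calcoco2 and Skap1 beside Hoxb, Npff beside Hoxc, and Chn1 and Ttc30b beside Hoxd. The share of all genes with a peak in all 22 lists is not given here, so the 12 cannot be set against it. The Evx genes, homeobox relatives at the cluster ends, had a peak in 7 length-limited lists (Evx1, beside Hoxa) and in 0 (Evx2, beside Hoxd), and in 12 and 4 of the whole lists. Of the 27 neighbours tested, 1 passed for LPSx1 against media and 2 for LPSx2 against media. Over all genes tested the shares were 5.4% and 6.11%, so these counts are near the background. Skap2, a macrophage adaptor protein gene 145.77 kb from the Hoxa cluster, fell with LPS. It had 1.43 ± 0.787 peaks in media (SD, n = 7; 0 to 2), 0.75 ± 0.707 in LPSx1 (n = 8; 0 to 2) and 0.714 ± 0.756 in LPSx2 (n = 7; 0 to 2). The differences were -0.78 ± 0.18 (SE; limma, adjusted p = 0.0264) and -0.71 ± 0.19 (limma, adjusted p = 0.041), lower in 5 of 7 animals and higher in 0. Cbx1, encoding a heterochromatin protein and lying beyond Hoxb1, had 1.29 ± 0.756 peaks in media (n = 7; 0 to 2) and 0.143 ± 0.378 in LPSx2 (n = 7; 0 to 1). It fell by 1.17 ± 0.30 (SE; limma, adjusted p = 0.0371), lower in 5 of 7 animals and higher in 0. Both calls depended on single animals and on lanes. Skap2 passed in neither pair of lanes (LPSx1 -0.50 in lanes 1 and 2 and -1.19 in lanes 3 and 4; LPSx2 -0.50 and -1), and Cbx1 stood at -0.50 in lanes 1 and 2 (limma, adjusted p = 0.426) and -2 in lanes 3 and 4 (limma, adjusted p = 2.1e-07). Skap2 missed the threshold without animal 1, 3, 5, 7 or 8 in either comparison, and without animal 4 in LPSx2 (limma, adjusted p from 0.0505 to 0.158). Cbx1 missed it without animal 1, 4, 5, 7 or 8 (limma, adjusted p from 0.0831 to 0.155), and with the animal as a replicate block (limma, adjusted p = 0.0639). In the whole lists Skap2 stood at 2.22 for LPSx1 and 1.88 for LPSx2, the opposite direction. Over the neighbours tested, the median difference was -0.15 for LPSx1 and -0.33 for LPSx2, against 0 over all genes.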

How the data were processed

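Per the submitters' processing notes, reads were trimmed with Trimmomatic 0.38, handled with SAMtools 1.8, Picard 2.18.4 and bedtools, and peaks were called with HOMER on mm10; the aligner is not given in the sources used here. The authors deposited 1 peak list per library, with a peak score of unstated scale that was used here only to rank peaks. Read depth is unknown, so precision is limited by list length.

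Where peaks of a list overlapped, the one with the higher score was kept, and lists under 5000 peaks were left out. Within each of 4 lanes, lists were limited to the length of the shortest (11349, 22037, 16045 and 13957 peaks). Each peak went to the nearest start of a GENCODE M21 protein-coding gene within 100 kb. Genes and 50-kb windows averaging 0.5 peaks or more entered limma 3.58.1 (R 4.3.3; trend, robust; 6 groups and lane; Benjamini-Hochberg over all, threshold 0.05). The strain contrast kept the animal as a random effect with statmod 1.5.0 (consensus correlation -0.00401, estimated with lane in the model). With so small a correlation the random effect changed little: 105 genes passed with it and 105 without. The strain test therefore counted 22 libraries of 8 animals nearly as independent. The 3 libraries of an animal are paired by design and share a lane. All 21 within-animal correlations of deviations from group means were above 0.1 (0.195 to 0.8), but these do not separate animal from lane. The main fit of the treatment comparisons held groups and lane and did not use this pairing, and the replicate block was fitted as an alternative. Regions and sequences were handled in Python 3.11.15 with numpy 2.4.6 and pandas 2.3.3. No peak passed a chromosome end of GRCm38.p6.

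The Hox genes, the gene lists and the comparisons were chosen with earlier results of these data known. The text names Hox genes among the 3 with most peaks per cluster, list genes that passed or had the largest LPSx1 difference, and regions in most libraries; some items that this rule names are not reported here; the Hoxa4, Hoxa10 and Hoxd values, flanking genes open in all libraries, the CpG comparison and the Hoxa4 sequence were added after values were seen. P-values measure only the spread between these libraries.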

Additional observations from a re-analysis of the deposited data

Results flagged for a closer look

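One library stood far from the other 3 of its group for several Hox counts. In BTBR LPSx2, animal 2 (127242 peaks in its list) had 33 Hox peaks in all against 1 to 3 in the others. By cluster it had 13 against 0 to 2 at Hoxa, 11 against 0 to 1 at Hoxb, 3 against 0 at Hoxc and 6 against 0 to 1 at Hoxd, and 6 Hox starts with a peak against 0 to 1. The same animal led BTBR LPSx1 at Hoxb (8 against 0 to 1) and BTBR media at Hoxc (2 against 0), Hoxd (1 against 0) and in Hox starts (4 against 3). These counts move with list length, whose part was not tested.

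The other flags were single peaks, or one more, in an otherwise even group. C57BL6/J animal 7 LPSx1 had 1 whole-list Hoxd peak against 0. In the length-limited lists, 1 Hoxb peak against 0 was found in BTBR animal 5 LPSx1, BTBR animal 3 LPSx2 and C57BL6/J animal 6 LPSx1, 1 Hoxd peak against 0 in BTBR animal 5 LPSx1, and 2 Hox peaks against 1 in BTBR animal 5 LPSx2. In all, 16 of 41 sets of values were flagged, where chance flags about 1 in 20 of continuous values and small tied counts are flagged more readily.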

How the results depend on the processing

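The number of Hox genes and of Hox windows past the threshold was 0 in every alternative fitted, including the replicate block for the treatment comparisons and no replicate block for the strains. No Hox window could be tested with every list limited to the shortest, in the stronger part of each list, or at a mean of at least 1 peak. Under the replicate block Cbx1 stayed at -1.17 for LPSx2 against media, without passing. With whole lists, 3 Hox genes and 5 windows could be tested, but no gene of 13126 passed in any comparison by limma (880 for LPSx1 and 771 for LPSx2 against media at an unadjusted p under 0.05). In 8 alternatives no Hox gene reached the testing limit: without animal 3 or 4, in lanes 3 and 4 alone, with every list limited to the shortest, the stronger part of each list, a mean of at least 1 peak, overlapping peaks not merged, or no list left out. With no filter, 5 Hox genes were tested, and Hoxa4 stood at -0.42 for LPSx2 against media (limma, unadjusted p = 0.0262, adjusted p = 0.146). Over all genes, leaving out 1 animal gave 194 to 413 called genes for LPSx1 (5.4% of genes with all animals), 147 to 563 for LPSx2 (557 with all) and 45 to 129 for the strains (105). Counts of called genes differed by more than 1.5 times under other settings too, from 0 in each comparison (whole lists) and 1 for LPSx1 and for LPSx2 (no list left out) up to 815 (LPSx1, no filter), 1088 (LPSx2, peaks not merged) and 534 (strains, lanes 3 and 4 alone). Called windows ran from 0 (whole lists) and 44 (no list left out) to 1354 for LPSx1 (1350 in the main setting), from 0 to 1748 for LPSx2 (1594) and from 0 to 732 for the strains (246); the replicate block gave 840 for LPSx1 and 1164 for LPSx2, and leaving out 1 animal gave 570 to 968, 620 to 1242 and, for the strains, 109 to 224. Reversed with whole lists were Skap2 (2.22 and 1.88), Eed (2.00), Kdm6b (0.93), Phc2 (0.42), Nfe2l2 (1.53) and Agps (1.58). Nfe2l2 and Agps are Hoxd neighbours, 941.66 and 1069.2 kb from the cluster. Kdm6b was also reversed in lanes 1 and 2 (0.25). The cause was not tested. The number of Hox regions gained, lost or strain-specific was 0 except with whole lists and 4 animals together (2), a choice added after the data were seen. In the length-limited lists most Hox regions were found in too few libraries to meet the rule of 5 animals. The mean number of Hox peaks per library was 1.14 in length-limited lists and 5.91 in whole lists, 0.455 with every list limited to the shortest, and 0.95 to 1.32 leaving out 1 animal.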
